A study of Jaculus jaculus and Mus musculus with 24 samples.

Results

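The 37 genes described here are the members of the Hox gene clusters A, B, C and D that had a count in the deposited files. They were taken as every row whose transcript identifier pairs with a mouse symbol of the form Hoxa, Hoxb, Hoxc or Hoxd with a number from 1 to 13, antisense genes left out. Of 17641 rows in all, 10 belonged to cluster A, 10 to cluster B, 9 to cluster C and 8 to cluster D. Hoxa13 and Hoxd4 had no row under this rule and were not analysed here.

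The series measured total RNA from muscle of newborn jerboa (Jaculus jaculus) and mouse by sequencing, and its title concerns the loss of the intrinsic hindfoot muscles in the jerboa. There were 8 groups of 3 libraries, 24 in all: hindfoot muscle and forelimb muscle, from jerboa and from mouse, at P0 (newborn, day 0) and at P3 (day 3 after birth). All animals carried the label normal for treatment, and no strain, sex or genetic change was named. The hindfoot muscle was taken from sections of the foot, whereas the forelimb muscle, named FDS, was dissected. Limb, position along the limb and way of sampling therefore cannot be told apart. The labels describe the P0 reads as trimmed and the P3 reads as raw, so age and read handling cannot be told apart. Nothing in the labels ties the 3 libraries in a group to separate animals, so p-values measure the spread between libraries, which may be technical.

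Hox genes encode homeodomain transcription factors that lie side by side in the genome, and each cluster carries a subset of the same numbered series of paralogs. Low numbers act towards the head and the base of the limb, and high numbers towards the tail and the digits, an order known as collinearity. In limb muscle, the connective tissue cells keep much of this positional pattern after birth. Genes towards the 5′ end of the C cluster are known for activity in the hindlimb rather than the forelimb. Those towards the 5′ end of the D cluster are known for activity in the foot and digits.

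Paralogs of one number encode nearly the same DNA-binding domain, and the results below turn on whether reads can be told apart between them. The homeoboxes of paralog 10 are shown because Hoxc10 separated the limbs with the most reads of any HoxC gene. Each is the 180-base coding sequence of the homeodomain from the GENCODE M21 transcripts (GRCm38), 5′ to 3′ on the coding strand, with capitals at the bases that differ from Hoxc10.
Hoxa10, chr6:52232554-52232733, minus strand: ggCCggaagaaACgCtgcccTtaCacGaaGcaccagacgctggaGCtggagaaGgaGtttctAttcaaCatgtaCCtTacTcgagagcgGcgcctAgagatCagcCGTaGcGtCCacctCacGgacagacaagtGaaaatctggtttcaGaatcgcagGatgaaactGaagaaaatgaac
Hoxc10, chr15:102970848-102971027, plus strand: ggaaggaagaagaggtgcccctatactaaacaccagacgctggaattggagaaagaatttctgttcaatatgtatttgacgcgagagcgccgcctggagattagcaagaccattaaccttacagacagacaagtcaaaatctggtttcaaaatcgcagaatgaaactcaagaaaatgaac
Hoxd10, chr2:74694141-74694320, plus strand: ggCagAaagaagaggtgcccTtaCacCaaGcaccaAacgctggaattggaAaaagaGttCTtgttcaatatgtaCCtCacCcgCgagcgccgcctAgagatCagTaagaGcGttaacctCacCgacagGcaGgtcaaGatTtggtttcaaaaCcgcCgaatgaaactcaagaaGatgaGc

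All 3 homeoboxes lie within a single exon. Hoxa10 differed from Hoxc10 at 35 of 180 bases and Hoxd10 at 31, and the longest stretch without a difference was 14 and 16 bases. Over the 37 members there were 666 pairs of homeoboxes, and 1 pair shared a run of 50 bases or more. Over whole transcripts, Hoxc10 shared 6.4% of its 50-base windows with another transcript of Hoxc5, which overlaps it, while Hoxc11, Hoxd9, Hoxd12, Hoxd13, Hoxa9 and Hoxa10 shared none with any gene. Hoxd3 shared 86.3% of its windows with overlapping transcripts, Hoxd4 among them, and Hoxb2 and Hoxb3 shared 57.3% and 68.7% with Hoxb3os. Hoxa3 and Hoxa7 shared 26.3% and 27% with overlapping transcripts of cluster A. Hoxd3, Hoxd11, Hoxa2, Hoxa3, Hoxc10 and Hoxd10 shared 88.0%, 23.9%, 15%, 10.1%, 8.70% and 5.73% of their exon bases with another gene of the same strand. Their counts are uncertain there, by an amount that these shares do not measure. The overlaps of Hoxa7, Hoxa11, Hoxb2 and Hoxb3 lay with transcripts of the opposite strand, Hoxa11 with Hoxa11os over 35.0% of its exon bases, and reads of 1 strand were counted. All these values come from mouse transcripts, and sharing between genes was not examined in jerboa.

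Depth on the counted strand ranged from 16.7 to 54.7 in units of 1000000 reads, with the lowest values in the 3 jerboa hindfoot libraries at P0, and a floor of 3 reads corresponded to 0.0535 to 0.192 CPM (counts per 1000000 reads of the library after TMM scaling). The limb labels were checked on Tbx5, which marks the forelimb, and Tbx4 and Pitx1, which mark the hindlimb. Tbx4 lay at 93.4 to 127 CPM in the jerboa hindfoot libraries and at 2.06 to 4.98 CPM in the jerboa forelimb libraries. In mouse Tbx4 lay at 44.5 to 63.7 CPM in the hindfoot and at 11.9 to 17.7 CPM in the forelimb, a narrower separation. Pitx1 lay at 0.995 to 11.4 CPM in the hindfoot libraries and at 0 to 0.572 CPM in the forelimb libraries. Tbx5 stood at 7.52 to 15 CPM in the 12 forelimb libraries and at 0 to 0.113 CPM in the mouse hindfoot. In the jerboa hindfoot at P0 it ranged from 0.0568 to 1.43 CPM, the highest value being that of replicate 1. Without that library, 15 members were called higher and 8 lower in the jerboa hindfoot at P0, against 15 and 6 with it.

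The 37 Hox genes summed to a higher level in the hindfoot than in the forelimb in each species and at each age. In jerboa the sum was 187 ± 31.6 CPM (SD, n = 3) in the hindfoot and 102.5 ± 2.85 CPM in the forelimb at P0, and 154 ± 11.3 and 81.1 ± 3.04 CPM at P3. In mouse it was 217 ± 7.74 against 155 ± 18.4 CPM at P0 and 229 ± 7.78 against 146 ± 1.45 CPM at P3. The 3 hindfoot libraries lay above the 3 forelimb libraries in all 4 cases. In bulk RNA, fewer cells of a type and less RNA per cell cannot be told apart.

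The makeup of that sum differed between the limbs more than the sum itself. Cluster C supplied 22 ± 2.64% of the Hox reads in the jerboa hindfoot at P0 and 27.2 ± 1.6% at P3, and 20.8 ± 2.26% and 20.2 ± 0.611% in the mouse hindfoot. In the forelimb its share was 1.19 ± 0.463% and 0.595 ± 0.104% in jerboa, and 0.437 ± 0.0662% and 0.339 ± 0.0371% in mouse. Cluster A ran the other way, with 26.8% to 34.1% of the Hox reads in the hindfoot groups and 61.6% to 74.2% in the forelimb groups. Its own sums differed less. In jerboa they were 61.4 ± 12 CPM in the hindfoot against 69.1 ± 1.79 CPM in the forelimb at P0, with overlapping libraries. At P3 they were 41.3 ± 3.14 against 50 ± 3.24 CPM. In mouse they were 74.2 ± 4.38 against 106 ± 14.6 CPM at P0 and 75 ± 0.445 against 108 ± 1.05 CPM at P3. Cluster D made up 40.6% to 44.2% in the hindfoot and 20.6% to 31.9% in the forelimb, and cluster B 2.51% to 5.86% throughout.

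**Figure D1:**
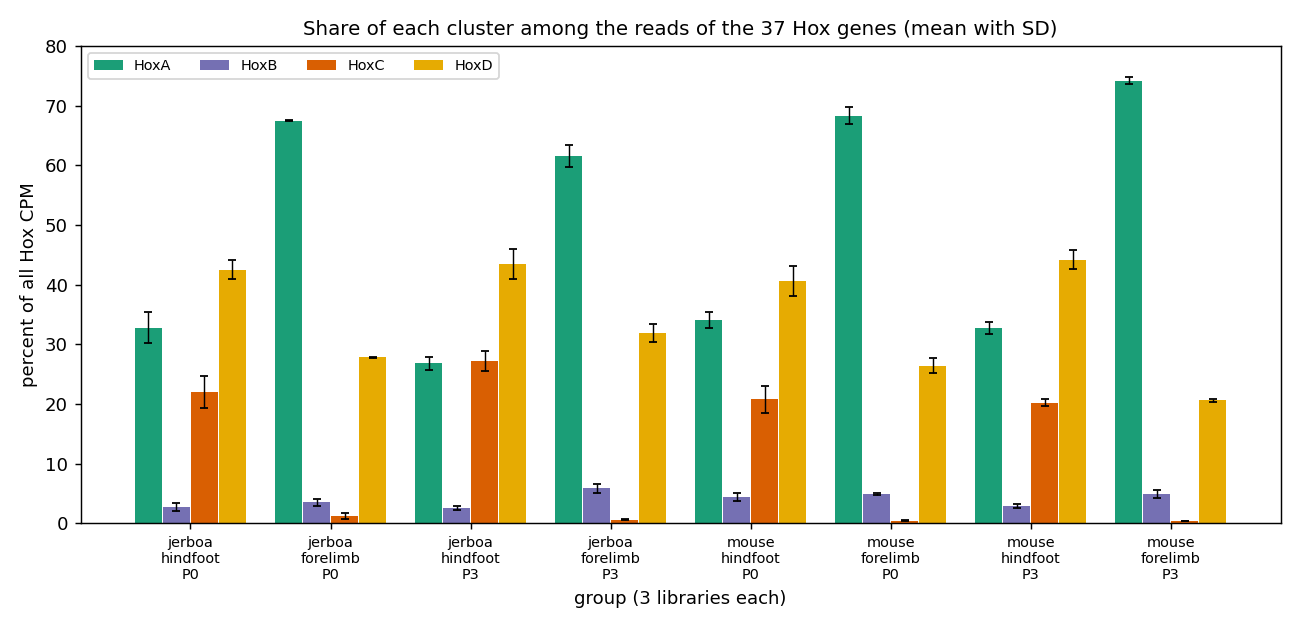
Percent of all Hox CPM that came from each cluster (y axis) in the 8 groups (x axis); bars are means of 3 libraries and error bars SD. The cluster C bar is at 20.2% or more in each hindfoot group and at 1.19% or less in each forelimb group, while the cluster A bar is at least 61.6% in the forelimb.

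Hindfoot and forelimb were compared within each species and age by edgeR's quasi-likelihood test with Benjamini-Hochberg adjustment over all 14448 genes that passed the filter on low counts; a gene is called where its adjusted p was under 0.05. Of the 37 members, 34 passed the filter and 3, Hoxb1, Hoxc12 and Hoxd1, did not. Differences are log2 (hindfoot / forelimb) with the SE.

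In jerboa at P0, 15 of the 34 members tested were higher in the hindfoot and 6 lower, where 31.2% of all genes tested were called higher and 34.8% lower. At P3 in jerboa 16 were higher and 12 lower, against 35.9% and 32.1% of all genes. In mouse at P0, 14 were higher and 12 lower, with 29.8% and 29.3% of all genes, and at P3 13 were higher and 13 lower, with 27.3% and 25.3%. The median difference over the members tested lay between −0.08 and 0.01 in the 4 comparisons, and that over all genes between −0.01 and 0.04. In jerboa at P0 the member counts rest in part on single libraries, since 4 to 8 members were lower when 1 library was left out.

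Direction followed cluster and paralog number. Of the 14 members of paralogs 9 to 13, 12 were higher and 0 lower in jerboa at P0 (at an unadjusted p under 0.05 also 0), 12 and 1 at P3, 9 and 3 in mouse at P0, and 9 and 2 at P3. Of the 20 members of paralogs 1 to 8, 3 were higher and 6 lower in jerboa at P0, 4 and 11 at P3, 5 and 9 in mouse at P0, and 4 and 11 at P3. Within clusters, Spearman's rho between paralog number and the log2 difference was 0.93 to 0.96 over the 7 tested HoxD genes, 0.83 to 0.93 over 9 HoxB genes, 0.60 to 0.79 over 8 HoxC genes and 0.49 to 0.84 over 10 HoxA genes. These are descriptions across neighbouring genes of the same libraries. The HoxB and HoxC ranks include genes with 3 reads or fewer in a group, whose fitted differences depend on the prior count. Hoxb13 entered the mouse ranks on 2 reads against 0 at P0 and 0 against 0 at P3.

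**Figure D2:**
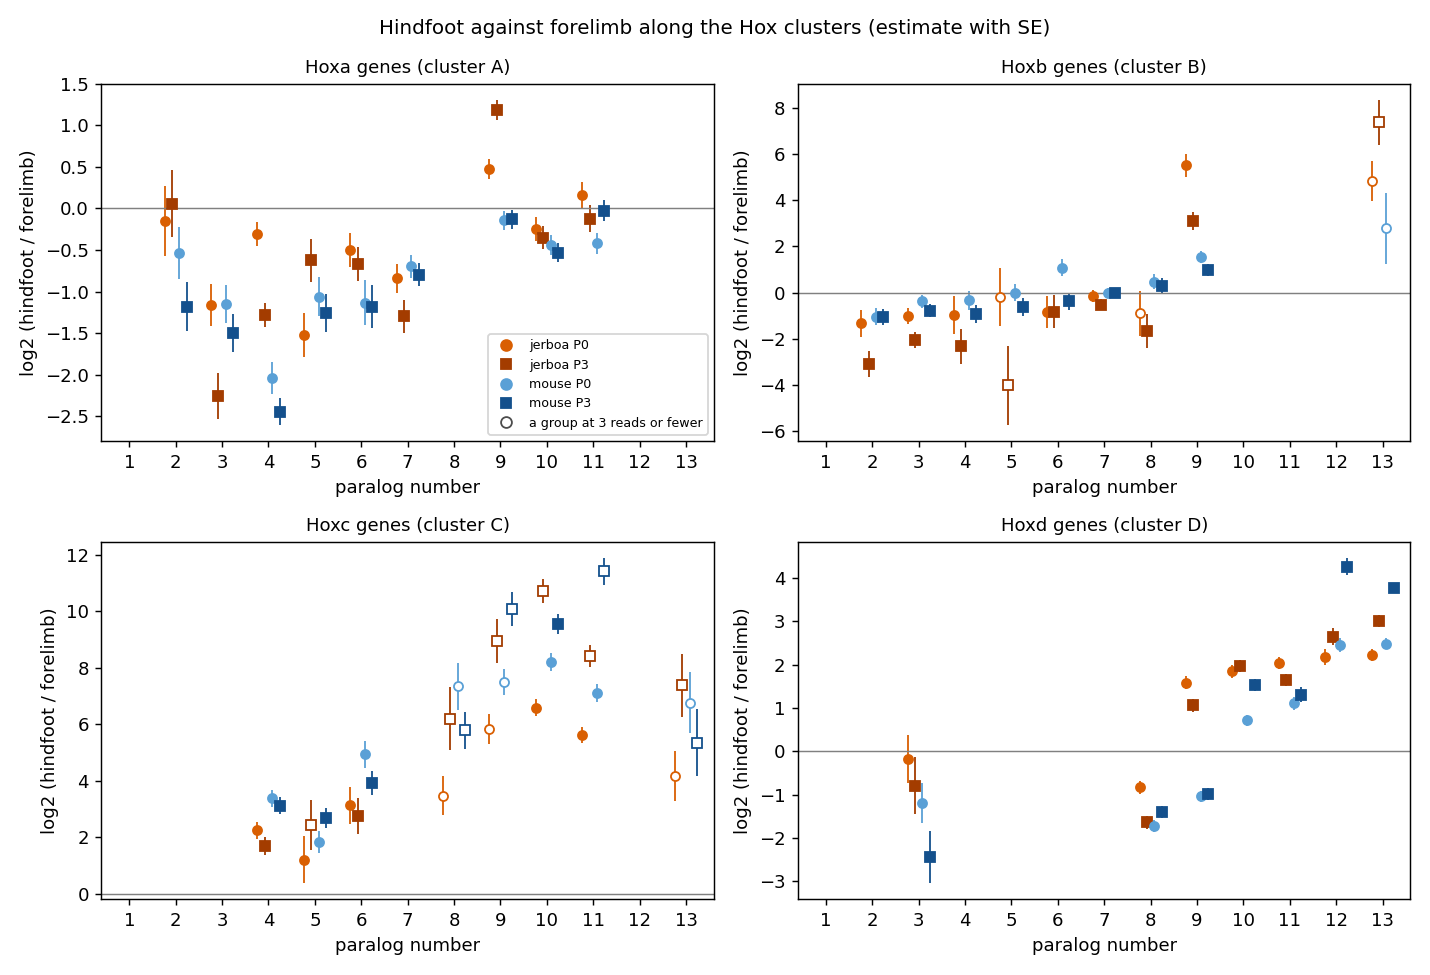
Log2 (hindfoot / forelimb) with SE (y axis) of the Hox genes against their paralog number (x axis), 1 panel per cluster, for jerboa and mouse at P0 and P3. Open symbols have 3 reads or fewer in 1 of the groups, so their fitted height depends on the prior count. All HoxC points lie above 0, and the HoxD points cross 0 between paralogs 8 and 9 in jerboa and between 9 and 10 in mouse.

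The 2 species agreed on most called members. At P0, 18 members were called in both species, 85.7% of the 21 called in jerboa and 69.2% of the 26 called in mouse, and 17 of them had the same direction. At P3, 24 were called in both, 85.7% of the jerboa and 92.3% of the mouse calls, and 23 had the same direction. Hoxd9 was the exception at both ages. Between P0 and P3, 21 jerboa members and 24 mouse members were called at both ages, all in the same direction. These overlaps were not computed over all genes, so whether they are particular to the Hox genes cannot be said.

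Cluster C held the widest differences. All 8 HoxC genes tested were higher in the hindfoot in mouse at both ages and in jerboa at P3, and 7 of 8 in jerboa at P0, and each fitted HoxC difference was above 0 in the 4 comparisons. Hoxc5 in jerboa at P0 was the member that did not pass (log2 1.21 ± 0.83, adjusted p = 0.202), on 0.0639 to 0.227 CPM in the hindfoot and 0 to 0.11 CPM in the forelimb.

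Hoxc10 (chr15:102966796-102971893, plus strand of GRCm38), known for its activity at lumbar and hindlimb level, was the most abundant HoxC gene per length in the mouse hindfoot. In the jerboa hindfoot it stood at 20.3, 31.1 and 18.9 CPM at P0 and at 26, 23.7 and 24.9 CPM at P3. In the jerboa forelimb at P0 the 3 libraries gave 0.11, 0.558 and 0.0894 CPM, and at P3 a single read was counted over all 3. Every hindfoot library was thus above every forelimb library, by a log2 difference of 6.59 ± 0.30 at P0 (adjusted p = 3.13e-15) and by a ratio of 2240 at P3 (95% counting interval 401 to 88400; 2018 reads against 1).

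Mouse Hoxc10 showed the same separation. Hindfoot libraries lay at 26, 20.9 and 20.7 CPM at P0 and at 27, 26 and 28.9 CPM at P3, and forelimb libraries between 0.0544 and 0.0886 CPM at P0 and between 0 and 0.0613 CPM at P3. The log2 difference was 8.20 ± 0.33 at P0 (adjusted p = 1.02e-15) and 9.55 ± 0.34 at P3 (adjusted p = 1.53e-16). The group totals behind it were 2071 against 9 reads and 3767 against 5 reads.

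Hoxc11 (chr15:102954427-102957708, plus strand), the next gene towards the 5′ end, had the same arrangement. Its jerboa hindfoot levels were 12.1, 15 and 9.01 CPM at P0 and 14.5, 12.2 and 11.3 CPM at P3, and its mouse hindfoot levels 12.3, 10.2 and 12.8 CPM at P0 and 9.42, 10 and 10.5 CPM at P3. Forelimb libraries ranged from 0.119 to 0.33 CPM in jerboa at P0, from 0 to 0.0679 CPM at P3 and from 0.0239 to 0.163 CPM in mouse at P0, and no read was counted in the mouse forelimb at P3. No forelimb library reached a hindfoot library: the log2 difference was 5.63 ± 0.29 in jerboa at P0 (adjusted p = 1.14e-13) and 7.12 ± 0.32 in mouse at P0 (adjusted p = 2.99e-14). At P3 the ratio was 386 in jerboa (95% counting interval 132 to 1870; 1043 reads against 3), and the mouse hindfoot, with 1383 reads against 0, was at least 509-fold higher, with the forelimb group set at the floor of 3 reads.

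Hoxc9, best known for setting thoracic motor neuron identity, was lower in abundance. It had 110 hindfoot against 3 forelimb reads in jerboa at P0 and 464 against 3 in mouse at P0, ratios of 63.4 (95% counting interval 21.1 to 312) and 206 (70.1 to 1000). At P3 no forelimb read was counted in either species, and the hindfoot was at least 55.5-fold higher in jerboa and at least 201-fold higher in mouse. Hoxc8, a thoracic gene, had 21 against 3 reads in jerboa at P0 (ratio 12.1, interval 3.62 to 63.4) and 22 against 0 at P3, which put the hindfoot at least 8.13-fold higher. In mouse it was at least 24.9-fold higher at P0 (56 reads against 0) and 86.1-fold higher at P3 (interval 15 to 3440; 78 reads against 1).

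At the 3′ end of the cluster the differences were narrower. Hoxc4, known from neck and upper thoracic segments, was higher in the hindfoot by 2.25 ± 0.30 and 1.69 ± 0.32 in jerboa and by 3.39 ± 0.30 and 3.13 ± 0.30 in mouse at P0 and P3. Hoxc6, a brachial gene in the neural tube, was higher by 3.13 ± 0.65 and 2.76 ± 0.64 in jerboa and by 4.94 ± 0.49 and 3.91 ± 0.43 in mouse. Hoxc5 was higher by 1.83 ± 0.39 and 2.70 ± 0.36 in mouse. Hindfoot and forelimb libraries did not overlap for Hoxc4 or Hoxc6 in any of the comparisons, and the adjusted p was at most 0.000529.

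Hoxc13, known for its role in hair and nail keratinisation, was counted in the hindfoot with 24 and 48 reads in jerboa and 37 and 20 in mouse at P0 and P3, and with 2 reads in all in the forelimb, both in jerboa at P0. The hindfoot was at least 17.7-fold higher in jerboa at P3 and at least 16.4-fold and 7.36-fold higher in mouse at P0 and P3, and the jerboa ratio at P0 was 20.8 (95% counting interval 5.15 to 181). The summed level of 6 keratinocyte markers (Krt1, Krt10, Dsp, Perp and Lor among them) was 75.5 to 116 CPM in the jerboa hindfoot against 13.7 to 16.9 CPM in the forelimb at P0, and 44.7 to 63.8 against 14.5 to 25.5 CPM at P3. In mouse it was 5.34 to 6.05 CPM against 7.4 to 8.07 CPM at P0 and 5.27 to 6.38 against 6.39 to 7.35 CPM at P3. Of its 5 tested genes, 2 and 3 were higher and none lower in the jerboa hindfoot at P0 and P3, while 1 was higher and 2 lower in mouse at each age; the part of such cells in the Hoxc13 values was not tested. Lor was at 0 in the jerboa forelimb at P3, and none of the 6 was at 0 in any other group.

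**Figure D3:**
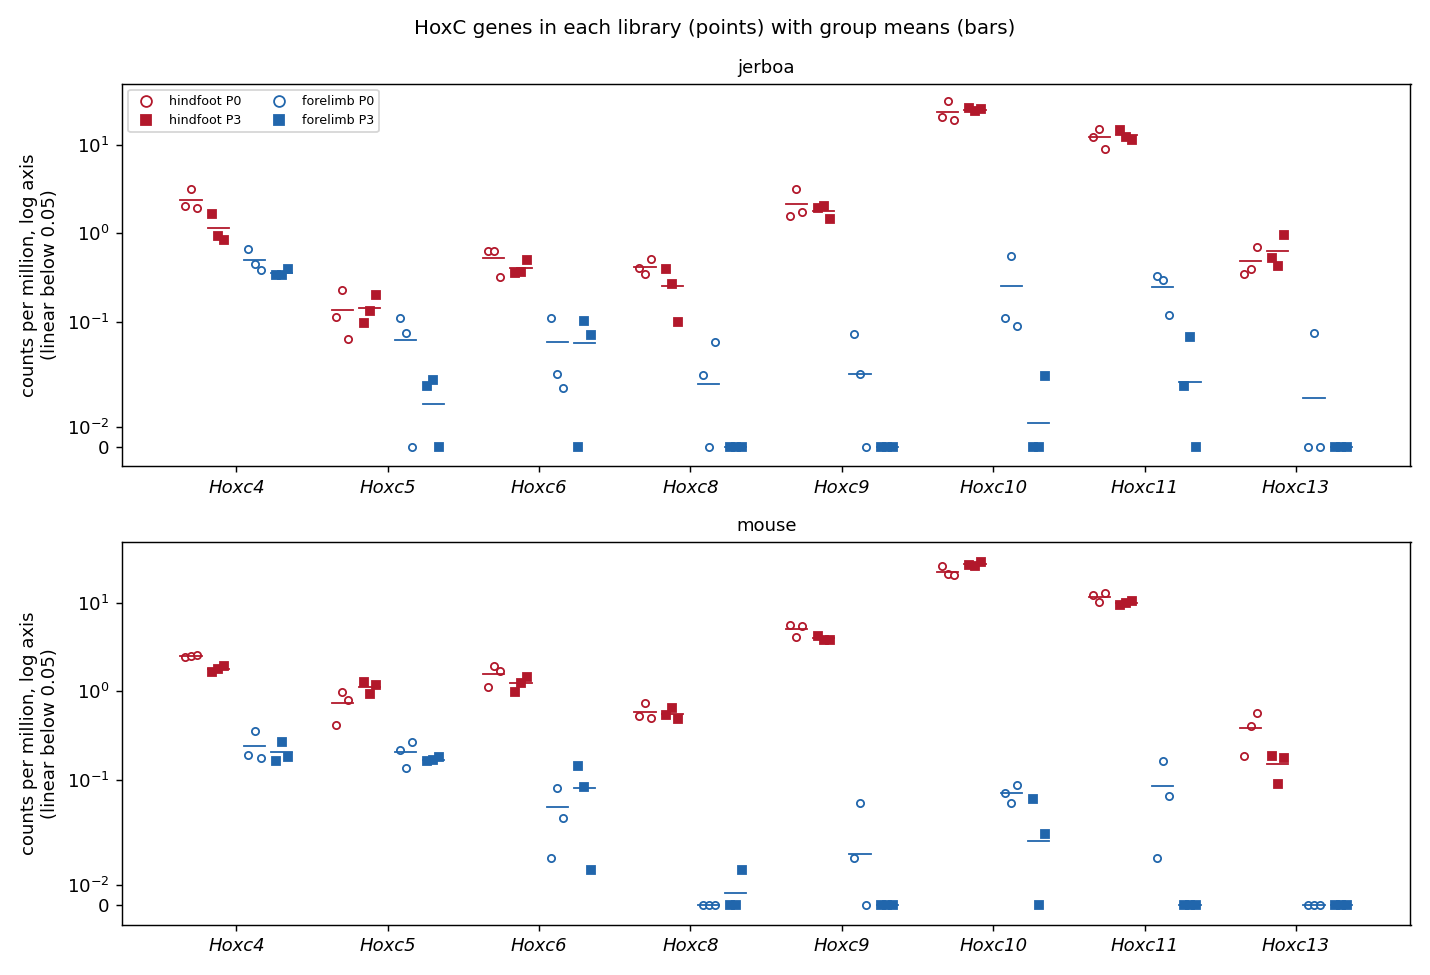
CPM of 8 HoxC genes in each library (points) with group means (bars), jerboa above and mouse below, on an axis that is logarithmic above 0.05 and linear below it. For Hoxc10 and Hoxc11 every hindfoot point lies at 9.01 CPM or more and every forelimb point at 0.558 CPM or less.

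Cluster D divided into a foot-high and a forelimb-high part. Hoxd13 (chr2:74668310-74671599, plus strand of GRCm38), the 5′ end gene required for digit formation, was higher in the hindfoot in each comparison. Jerboa hindfoot libraries lay at 20.7, 22.9 and 19 CPM at P0 and 25.9, 24.7 and 21.2 CPM at P3, and forelimb libraries at 4.4, 4.31 and 4.74 CPM and 2.36, 3.73 and 2.83 CPM. Mouse hindfoot libraries lay at 41.3, 53.3 and 45.9 CPM at P0 and 70.9, 61.3 and 68.8 CPM at P3, and forelimb libraries at 8.4, 9.31 and 7.44 CPM and 5.19, 4.88 and 4.69 CPM. The groups were well apart, with log2 differences of 2.22 ± 0.13 and 3.02 ± 0.14 in jerboa and 2.49 ± 0.12 and 3.77 ± 0.12 in mouse (adjusted p at most 4.2e-13).

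Hoxd12, which acts beside Hoxd13 in the autopod, was at 9.59 to 14.2 CPM in the jerboa hindfoot at P0 and 5.58 to 10.1 CPM at P3, against 2.49 to 2.79 and 1.25 to 1.49 CPM in the forelimb. In mouse it was at 17.8 to 19.3 and 13.8 to 14.6 CPM in the hindfoot, against 2.9 to 3.77 and 0.593 to 0.899 CPM in the forelimb. The widest HoxD difference of the 4 comparisons was that of mouse Hoxd12 at P3, at 4.26 ± 0.20 (adjusted p = 1.52e-14), and the other 3 Hoxd12 differences were 2.18 ± 0.18, 2.65 ± 0.20 and 2.46 ± 0.17.

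Hoxd11, which with Hoxa11 shapes the lower arm and leg, was higher in the hindfoot by 2.04 ± 0.15 and 1.64 ± 0.15 in jerboa and by 1.11 ± 0.15 and 1.31 ± 0.16 in mouse. Hoxd10, which shares a role in limb motor innervation with Hoxc10, was higher by 1.85 ± 0.14 and 1.98 ± 0.14 in jerboa and by 0.71 ± 0.13 and 1.54 ± 0.14 in mouse. Neither gene's hindfoot libraries overlapped its forelimb libraries (adjusted p at most 5.91e-05). Gm28309, a transcript of the same strand, overlaps 20.5% of the 50-base windows of Hoxd11 and 3.17% of those of Hoxd10, so part of their reads may be shared with it.

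Hoxd9 (chr2:74697727-74700208, plus strand), a gene used in both the proximal and the distal limb, moved in opposite directions in the 2 species. In the jerboa hindfoot it was counted at 7.5, 6.08 and 5.56 CPM at P0 and 3.82, 4.28 and 3.98 CPM at P3, and in the forelimb at 2.46, 1.9 and 2.06 CPM and 1.9, 1.9 and 1.97 CPM. In the mouse hindfoot it was counted at 3.16, 3.23 and 3.99 CPM at P0 and 2.07, 1.85 and 1.95 CPM at P3, and in the forelimb at 6.73, 7.27 and 7.4 CPM and 3.64, 3.84 and 4.22 CPM. Every jerboa hindfoot library was above, and every mouse hindfoot library below, the forelimb libraries of its species and age. The log2 difference was 1.58 ± 0.15 and 1.06 ± 0.15 in jerboa (adjusted p = 1.25e-09 and 9.42e-07) and −1.04 ± 0.13 and −0.997 ± 0.14 in mouse (adjusted p = 3.25e-07 and 1.54e-06).

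Hoxd8, the neighbour of Hoxd9 towards the 3′ end, was lower in the hindfoot in both species. Its jerboa levels were 5.05 to 6.53 CPM in the hindfoot and 9.62 to 10.7 CPM in the forelimb at P0, and 3.16 to 4.21 against 10.5 to 12.1 CPM at P3. Mouse levels were 3.16 to 4.63 against 10.5 to 13.8 CPM and 5.38 to 6.3 against 14.6 to 16.7 CPM. The differences were −0.83 ± 0.15 and −1.64 ± 0.15 in jerboa and −1.72 ± 0.14 and −1.40 ± 0.13 in mouse. The change of direction along the cluster thus lay between Hoxd8 and Hoxd9 in jerboa and between Hoxd9 and Hoxd10 in mouse. Hoxd3, a gene of the neck vertebrae, was lower in the mouse hindfoot by −1.19 ± 0.45 and −2.45 ± 0.59 and did not pass in jerboa (−0.18 ± 0.55 and −0.80 ± 0.66). Its mouse group means were under 1 CPM, and it shares 88.0% of its exon bases with another gene of the same strand, so its counts are uncertain.

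**Figure D4:**
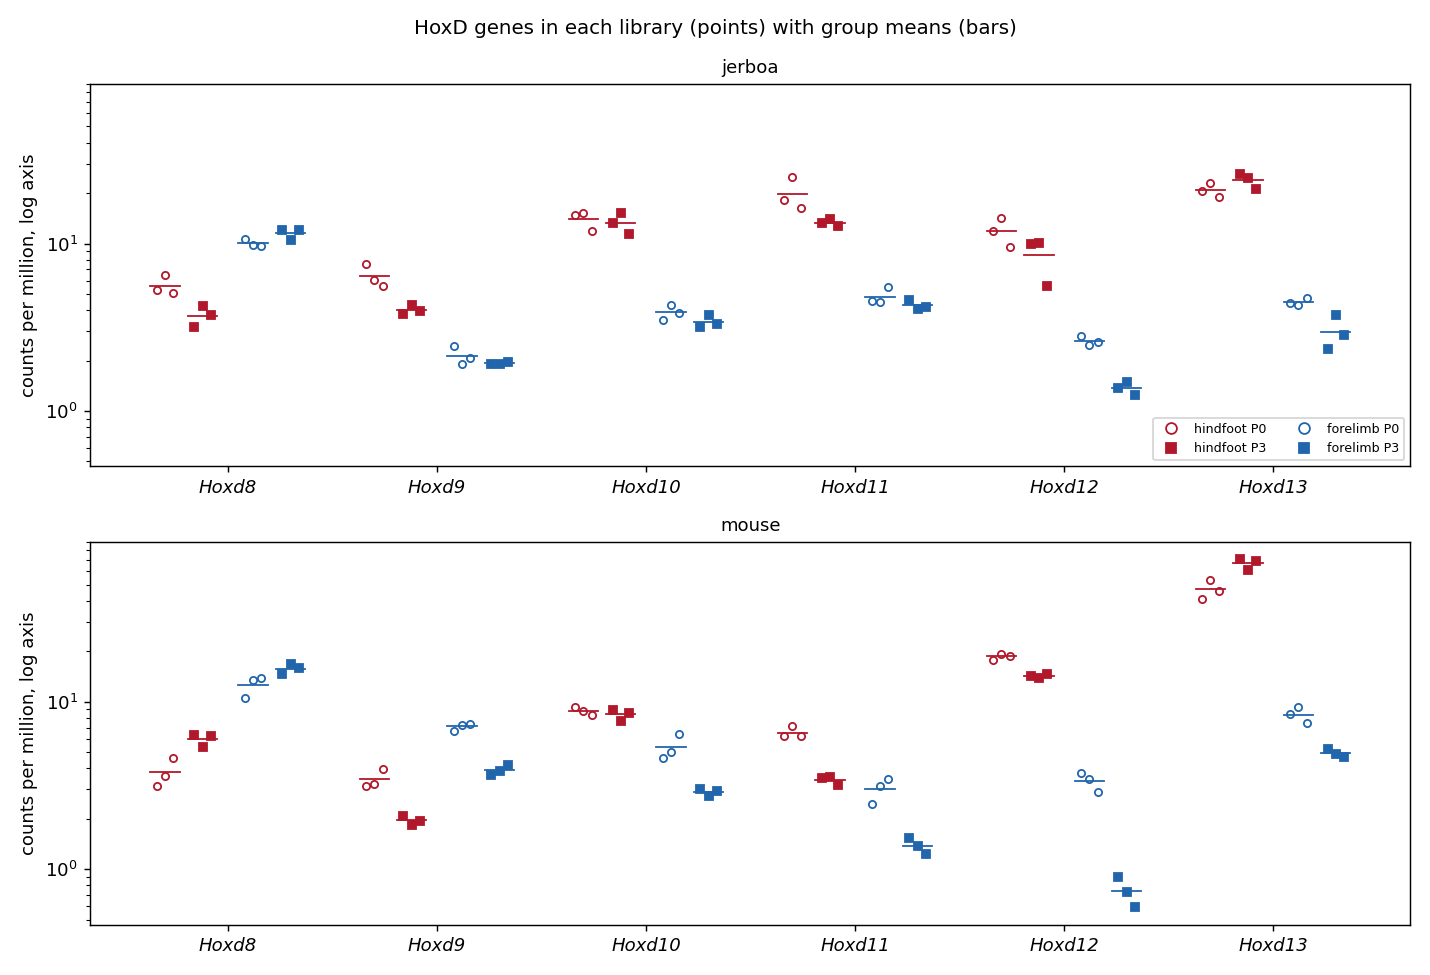
CPM of 6 HoxD genes (log axis) in each library (points) with group means (bars), jerboa above and mouse below. Hoxd10 to Hoxd13 are higher in the hindfoot and Hoxd8 is higher in the forelimb in both species, while Hoxd9 is higher in the hindfoot in jerboa and in the forelimb in mouse.

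Cluster A was mostly lower in the hindfoot. In mouse 8 of its 10 genes were lower at each age and the 2 differences that did not pass were also below 0, except that Hoxa11 at P3 came to 0.007 with upper quartile scaling, 0.011 with reads of either strand and 0.04 without the third forelimb library, and in jerboa 4 were lower and 1 higher at P0 and 7 lower and 1 higher at P3. Hoxa4, an anterior gene of the cervical and thoracic region, had the widest decrease in mouse, from 3.2, 4.6 and 4.69 CPM in the forelimb to 1.13, 0.794 and 1.14 CPM in the hindfoot at P0 and from 9.11, 8.82 and 8.96 CPM to 1.75, 1.43 and 1.79 CPM at P3. These were differences of −2.04 ± 0.19 (adjusted p = 2.13e-09) and −2.44 ± 0.16 (adjusted p = 6.61e-12), with no overlap between limbs. In jerboa Hoxa4 stood at 11.2, 11.2 and 8.56 CPM against 12.6, 11.4 and 14.5 CPM at P0, a difference of −0.31 ± 0.14 that did not pass (adjusted p = 0.0611), and it was lower by −1.28 ± 0.15 at P3.

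Hoxa3, needed for pharyngeal organs, was lower by −1.16 ± 0.26 and −2.26 ± 0.28 in jerboa and by −1.15 ± 0.23 and −1.50 ± 0.23 in mouse. Hoxa5, known from lung and shoulder development, was lower by −1.52 ± 0.26 and −0.62 ± 0.26 in jerboa and by −1.06 ± 0.23 and −1.26 ± 0.23 in mouse. Hoxa7, a thoracic gene, was lower by −0.84 ± 0.17 and −1.30 ± 0.20 in jerboa and by −0.70 ± 0.14 and −0.80 ± 0.14 in mouse. All 12 of these calls passed at an adjusted p of 0.0341 or less. Hoxa6, next to Hoxa7, was also called lower in all 4 comparisons, by −0.50 to −1.18. Hoxa2, which patterns the second pharyngeal arch, was lower in mouse at P3 alone (−1.18 ± 0.29).

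Hoxa9 was the exception within the cluster. In jerboa it was at 27.1, 23.5 and 18.5 CPM in the hindfoot against 16.7, 16.7 and 16.3 CPM in the forelimb at P0, and at 18.5, 17.2 and 15.5 CPM against 8.38, 7.33 and 6.87 CPM at P3. Its difference of 0.48 ± 0.12 at P0 and 1.18 ± 0.12 at P3 passed (adjusted p = 0.001 and 6.81e-09), with the hindfoot libraries above the forelimb libraries at both ages. In mouse the hindfoot was at 16.9 to 19.2 and 15.8 to 16.4 CPM and the forelimb at 16.6 to 22.3 and 17.1 to 18.3 CPM, and the differences of −0.14 ± 0.11 (95% interval −0.38 to 0.095) and −0.13 ± 0.11 did not pass.

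The remaining posterior HoxA genes differed little between limbs. Hoxa10, which patterns the upper leg and arm, was lower in the hindfoot by −0.44 ± 0.12 and −0.53 ± 0.12 in mouse and by −0.35 ± 0.14 in jerboa at P3, and did not pass in jerboa at P0 (−0.25 ± 0.14, adjusted p = 0.13). The jerboa call at P3 was lost without the third hindfoot library (adjusted p = 0.152) and without the second forelimb library (adjusted p = 0.0753). Hoxa11 was lower in the mouse hindfoot at P0 (−0.42 ± 0.13, adjusted p = 0.00741; 0.0539 without the second hindfoot library) and did not pass in the other 3 comparisons (0.16 ± 0.16, −0.12 ± 0.16 and −0.03 ± 0.13).

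Hoxa11 is overlapped by Hoxa11os on the other strand, and reads of that strand made up 33.6% and 39.5% of its reads in the jerboa hindfoot at P0 and P3. The share was 16.5% and 13.4% in the jerboa forelimb and 4.7% to 11.4% in the 4 mouse groups. Counted over both strands, the Hoxa11 difference in jerboa became 0.49 at P0 and 0.38 at P3, both called. In mouse, reads of the other strand also made up 34.2% to 41.9% of those over Hoxb3, and 24.3% and 50% of those over Hoxd3 in the forelimb and hindfoot at P0.

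In cluster B levels were low, and the calls went by paralog number. Hoxb9, a thoracic and limb-field gene, was higher in the hindfoot in all 4 comparisons. Jerboa libraries read 2.29, 2.04 and 2.43 CPM in the hindfoot against 0.0733, 0.0372 and 0.0298 CPM in the forelimb at P0, and 1.4, 1.41 and 1.59 against 0.246, 0.0339 and 0.215 CPM at P3. Mouse libraries read 2.82, 4.05 and 3.89 against 1.19, 1.5 and 1.02 CPM at P0, and 1.24, 1.94 and 2.19 against 1.31, 0.768 and 0.664 CPM at P3, where 1 forelimb library overlapped the hindfoot range. The differences were 5.52 ± 0.51 and 3.11 ± 0.41 in jerboa (adjusted p = 7.55e-10 and 2.88e-07) and 1.55 ± 0.26 and 0.99 ± 0.27 in mouse (adjusted p = 1.77e-05 and 0.00328).

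Hoxb13, a gene of the tail bud and prostate at the 5′ end, was counted in the jerboa hindfoot with 7, 9 and 6 reads at P0 and 17, 19 and 13 at P3, and with 1 and 0 reads in all in the jerboa forelimb. In mouse 2 reads were counted in the hindfoot at P0 and none in the other 3 groups. The jerboa hindfoot was 38.1-fold higher at P0 (95% counting interval 6.15 to 1570) and at least 18.1-fold higher at P3. In mouse both limbs were at or under the floor of 3 reads. Reads of the other strand over Hoxb13 made up 29% and 31.9% of its reads in the jerboa hindfoot (9 and 23 reads). The keratinocyte marker sums given beside Hoxc13 ran the same way in jerboa, and their part was not tested.

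Hoxb2 and Hoxb3, hindbrain genes, were lower in the jerboa hindfoot at P3 by −3.10 ± 0.57 and −2.05 ± 0.34 and in the mouse hindfoot at P3 by −1.05 ± 0.36 and −0.78 ± 0.27. At P0 Hoxb3 passed in jerboa alone (−1.02 ± 0.35, adjusted p = 0.012; 0.0913 without the third hindfoot library) and Hoxb2 in mouse alone (−1.04 ± 0.38, adjusted p = 0.0207). Hoxb4 was lower in jerboa at P3 (−2.32 ± 0.77), Hoxb5 was called lower there on 0 reads against 5, with overlapping libraries, and Hoxb6 was higher in the mouse hindfoot at P0 (1.09 ± 0.38). Hoxb7 and Hoxb8 passed in none of the 4 comparisons, and came nearest in jerboa at P3 (−0.52 ± 0.23, adjusted p = 0.0517, and −1.65 ± 0.74, adjusted p = 0.0518). Hoxb1 had 0 reads in all 24 libraries, Hoxc12 had 4 and 3 reads in the mouse hindfoot at P0 and P3 and none elsewhere, and Hoxd1 had at most 9 reads in a library, with 14 and 16 in all in the jerboa hindfoot at P0 and P3. These 3 genes did not pass the filter on low counts and were not tested.

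The difference between the species in the limb difference was tested directly, as (jerboa hindfoot − jerboa forelimb) − (mouse hindfoot − mouse forelimb) on the log2 scale. Of the 34 members, 8 were called higher and 3 lower at P0, where 21.6% and 26.9% of all genes were called. At P3, 5 were higher and 5 lower, against 24.1% and 24.9%. The share of members called was thus near or under that of all genes. With the libraries of P0 alone in the fit, 1 member was called lower.

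Hoxd9 had the smallest adjusted p of the members at P0, with a difference of 2.62 ± 0.20 (adjusted p = 2.45e-10), and it reached 2.06 ± 0.20 at P3 (adjusted p = 1e-08). Its numbered counterparts Hoxa9 and Hoxb9 went the same way, Hoxa9 by 0.62 ± 0.16 and 1.31 ± 0.17 (adjusted p = 0.00285 and 4.81e-07) and Hoxb9 by 3.97 ± 0.64 and 2.12 ± 0.51 (adjusted p = 1.54e-05 and 0.0012). The fourth, Hoxc9, had 3 reads in each forelimb group at P0 and 0 at P3, and its fitted difference at P0 was −1.67 ± 1.30 (adjusted p = 0.309).

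Along the rest of cluster D, Hoxd8 was less forelimb-biased and Hoxd10 and Hoxd11 were more hindfoot-biased in jerboa at P0, by 0.89 ± 0.21, 1.13 ± 0.19 and 0.93 ± 0.21, and did not pass at P3 (−0.23 ± 0.19, 0.44 ± 0.20 and 0.33 ± 0.22). Hoxd12 and Hoxd13 did not pass at P0 (−0.28 ± 0.25 and −0.27 ± 0.18) and were less hindfoot-biased in jerboa at P3, by −1.62 ± 0.29 (adjusted p = 6.32e-05) and −0.75 ± 0.18 (adjusted p = 0.0015).

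In cluster A, Hoxa4 was less forelimb-biased in jerboa by 1.73 ± 0.24 at P0 and 1.16 ± 0.22 at P3 (adjusted p = 2.51e-06 and 8.76e-05). Hoxa11 passed at P0 (0.58 ± 0.21, adjusted p = 0.0218), but did not pass without any one of 5 libraries (replicates 1 or 2 of the jerboa hindfoot, or replicate 2 of the jerboa forelimb, the mouse hindfoot or the mouse forelimb). In cluster C, Hoxc4 was less hindfoot-biased in jerboa by −1.14 ± 0.44 and −1.44 ± 0.46 (adjusted p = 0.0364 and 0.012), and the P0 call was lost in 7 of the 12 fits with a library left out. For Hoxc10 and Hoxc11 at P0 the differences were −1.61 ± 0.75 (95% interval −3.21 to −0.02, adjusted p = 0.0799) and −1.49 ± 0.63 (−2.83 to −0.14, adjusted p = 0.0569). Both passed with DESeq2 (adjusted p = 0.0186 and 0.0271), Hoxc11 passed with upper quartile scaling (adjusted p = 0.0469), and leaving out any one of 3 libraries for Hoxc10 and 4 for Hoxc11 also brought the adjusted p under 0.05.

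**Figure D5:**
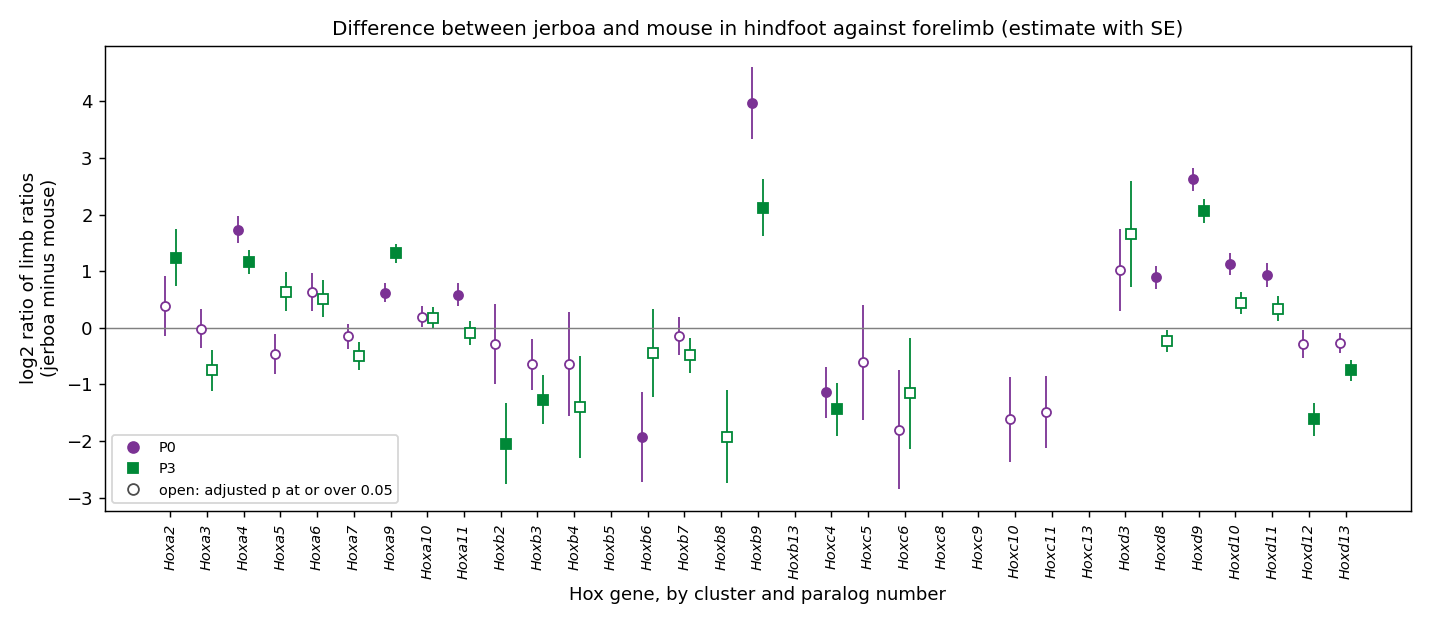
Difference between jerboa and mouse in log2 (hindfoot / forelimb), with SE (y axis), for Hox genes by cluster and paralog number (x axis); filled symbols passed an adjusted p of 0.05, and genes with 3 reads or fewer in 1 of the 4 groups are not drawn. Hoxa9, Hoxb9 and Hoxd9 lie above 0 at both ages.

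Markers of other cell types also differed between the limbs, and their part in the Hox differences was not tested. The 6 tendon markers were all higher in the hindfoot in each comparison, with sums of 5410 to 5620 against 2410 to 2570 CPM in jerboa at P0, 7900 to 9150 against 2710 to 3480 CPM at P3, 1940 to 2210 against 1140 to 1360 CPM in mouse at P0 and 2930 to 3330 against 1370 to 1890 CPM at P3. Of 8 muscle fibre markers 7 were lower in the hindfoot in each comparison, with sums over the list of 29400 to 46900 CPM in the 12 hindfoot libraries and 58700 to 87200 CPM in the 12 forelimb libraries. In mouse at P3 the other marker, Myh3, the embryonic myosin heavy chain, was higher in the hindfoot (1.51 ± 0.11). Cartilage markers were higher for 5 and 4 of 8 in jerboa, with 1 lower at each age, and 8 and 7 of 8 in mouse at P0 and P3, and all 5 endothelial markers were lower. Of 4 macrophage markers 1 was higher in each comparison and 3, 2, 3 and 1 were lower, and their sum in jerboa at P0 was 67.5 to 86.2 CPM in the hindfoot and 189 to 202 CPM in the forelimb. Of 4 Schwann cell markers 2 and 4 were lower in jerboa with none higher, 2 were higher in mouse at P0, and 1 was higher and 2 lower at P3, where their sum was 163 to 203 CPM in the hindfoot and 543 to 576 CPM in the forelimb. Of 3 satellite cell markers, those of muscle stem cells, 1 was lower in jerboa at P0, 1 was higher and 2 lower at P3, and 2 were higher in mouse at each age, with sums at P0 of 276 to 379 CPM in the mouse hindfoot and 117 to 151 CPM in the mouse forelimb. Neuron markers were higher for 3 of 4 in jerboa at each age, with 1 lower, and for 3 and 2 of 4 in mouse, and bone markers for 2 of 5 in jerboa at each age and for 5 and 2 of 5 in mouse, with 1 lower at P3. No tendon, muscle fibre or endothelial marker was at 0 in any group, and of the cartilage markers Matn1 was at 0 in the mouse forelimb at P3.

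The genes listed as connective tissue fibroblast markers were Pdgfra, Osr1, Tcf4, Col1a1, Col3a1, Dcn, Lum and Postn. Tcf4 here is the gene of that symbol, not Tcf7l2, and whether it marks these cells was not tested. It had the smallest adjusted p of the list between the jerboa limbs at both ages. Of the 8 genes, 4 were higher and 3 lower in the jerboa hindfoot at P0 and 3 higher and 4 lower at P3. In mouse 1 was higher and 5 lower at P0 and 1 higher and 3 lower at P3. Their sums were 44700 to 46100 against 35400 to 37000 CPM in jerboa at P0, 51500 to 55900 against 37900 to 42700 CPM at P3, 20900 to 22900 against 25100 to 27400 CPM in mouse at P0 and 25200 to 31500 against 22900 to 26500 CPM at P3, the last pair overlapping. The median differences over the 8 markers were 0.29, −0.12, −0.34 and −0.03 in the same order. Hoxd9 differed in the same direction as the sum in jerboa at both ages and in mouse at P0, the comparisons without overlap. In mouse at P3 Hoxd9 was lower in the hindfoot, while the mean sum was higher there (27700 against 24800 CPM). Hoxd9 differed in the same direction as the median in all comparisons but jerboa at P3. The part of such cells in the Hoxd9 values was not tested.

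Levels were compared between genes only in mouse, where transcript lengths allowed values per length and library size (RPKM). In the mouse hindfoot Hoxd13 ranked first, at 18.9 ± 2.42 RPKM (SD, n = 3) at P0 and 27 ± 2.02 at P3, before Hoxc10 at 11.8 ± 1.59 and 14.3 ± 0.782 and Hoxa10 at 8.29 ± 0.914 and 10.8 ± 0.282. In the mouse forelimb Hoxa10 ranked first, at 11.3 ± 1.39 and 15.7 ± 0.32 RPKM, before Hoxa11 at 9.76 ± 0.655 and 8.08 ± 0.728 and Hoxa7 at 9.65 ± 1.82 and 6.45 ± 0.653. Hoxa11 and Hoxa7 were within 1 SD of each other in the forelimb at P0, as were Hoxd12 (7.34 ± 0.309) and Hoxa11 (7.3 ± 0.801) in the hindfoot at P0. Hoxd13 lay at 3.38 ± 0.377 and 1.98 ± 0.102 RPKM in the mouse forelimb.

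Between P0 and P3 more Hox genes were called lower than higher. The share called lower was above that of all genes in the jerboa hindfoot alone, at 32.4% of the 34 members tested. It was 20.6% in the jerboa forelimb and 23.5% in each mouse limb, near or under that of all genes. The share called higher, 0% to 11.8%, was under that of all genes in each group. In the jerboa hindfoot 0 members were higher and 11 lower at P3, where 27% and 20.3% of all genes were called, and in the jerboa forelimb 0 were higher and 7 lower, against 22.5% and 20.6%. In the mouse hindfoot 4 were higher and 8 lower, against 29.1% and 28.5% of all genes, and in the mouse forelimb 3 were higher and 8 lower, against 26% and 25.4%. At an unadjusted p under 0.05 the counts of higher members in jerboa were 0 in the hindfoot and 1 (Hoxb9) in the forelimb, and DESeq2 and limma voom called 0 in both. Leaving out the second or the third mouse hindfoot library of P0 left 5 lower members in that limb.

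Hoxa7 fell in all 4 age comparisons, by −1.51 ± 0.21 and −1.06 ± 0.16 in the jerboa hindfoot and forelimb and by −0.68 ± 0.14 and −0.58 ± 0.14 in mouse. Hoxd12 was also called lower in all 4, most in the mouse forelimb, where it went from 3.77, 3.48 and 2.9 CPM to 0.899, 0.727 and 0.593 CPM (−2.20 ± 0.21, adjusted p = 6.39e-09). Its calls in the hindfoot were the weakest (adjusted p = 0.0239 in jerboa and 0.0275 in mouse), and that in jerboa was lost without the second library of P0 or the third of P3 (adjusted p = 0.173 and 0.164), and that in mouse without any one of 5 of its 6 libraries. Hoxd13 fell in both forelimb groups (−0.60 ± 0.16 in jerboa and −0.77 ± 0.12 in mouse) and rose in the mouse hindfoot (0.51 ± 0.11).

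Hoxd9 fell in the jerboa hindfoot (−0.67 ± 0.14) and in both mouse limbs (−0.82 ± 0.14 and −0.87 ± 0.13). Hoxa4 rose in both mouse limbs (0.71 ± 0.21 and 1.11 ± 0.14) and fell in the jerboa hindfoot (−0.90 ± 0.15). Its rise in the mouse hindfoot did not pass without the second library of P0 (adjusted p = 0.0582). Hoxa9 fell in the jerboa forelimb by −1.14 ± 0.12 and in the jerboa hindfoot by −0.43 ± 0.12, where the hindfoot libraries of the 2 ages overlapped and the call was lost without the first library of P0 (−0.30, adjusted p = 0.0556). Hoxc10 and Hoxc11 did not pass in either hindfoot (0.09 ± 0.17 and 0.07 ± 0.18 in jerboa, 0.28 ± 0.16 and −0.24 ± 0.17 in mouse). In the jerboa forelimb Hoxc10 went from 3, 15 and 3 reads to 1 in all, a call that was lost without the library of 15 reads (adjusted p = 0.0947).

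Genes that work with or next to the Hox proteins were taken from lists. Over all genes, 31.2% were higher and 34.8% lower in the jerboa hindfoot at P0, 35.9% and 32.1% at P3, 29.8% and 29.3% in mouse at P0, and 27.3% and 25.3% at P3, and the median differences were −0.01, 0.04, 0.01 and 0.03. The TALE homeodomain proteins bind DNA together with Hox proteins, and of the 8 tested 2 were higher and 3 lower in the jerboa hindfoot at P0, 1 and 4 at P3, 2 and 2 in mouse at P0, and 1 and 1 at P3, with medians between −0.05 and 0.01. Of 16 tested genes of limb identity and patterning, 8 were higher and 5 lower in jerboa at P0, 8 and 6 at P3, 7 and 6 in mouse at P0, and 7 and 7 at P3, with list medians of 0.41, 0.08, 0.04 and 0.13. Meis1, a proximal limb cofactor, was lower in the jerboa hindfoot at P3 by −2.07 ± 0.24, and Meis2 in the mouse hindfoot at P3 by −1.79 ± 0.32. Among the 12 tested genes that flank the clusters, 2 to 3 were higher and 6 to 8 lower in each comparison, with list medians of −0.49, −0.38, −0.33 and −0.17. Evx2, the homeobox gene beside Hoxd13, was higher in the hindfoot in all 4, by 3.56 ± 0.33 and 4.23 ± 0.39 in jerboa and 3.75 ± 0.42 and 3.91 ± 0.52 in mouse, while Hibadh and Skap2, which neighbour cluster A, were lower in mouse by −0.37 to −0.65.

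Of 20 Polycomb genes, whose products keep Hox genes silent, 7 were higher and 8 lower in the jerboa hindfoot at P0, 6 and 4 at P3, 6 and 4 in mouse at P0, and 10 and 2 at P3, with list medians of 0.08, 0.07, −0.01 and 0.17. Jarid2 was lower in jerboa at both ages (−0.84 ± 0.08 and −1.01 ± 0.08) and in mouse at P3 (−0.71 ± 0.08). Of 9 Trithorax and H3K27 demethylase genes, 1 was higher and 6 lower, 2 and 4, 3 and 1, and 2 and 5 in the same order, with list medians of −0.43, −0.14, 0.20 and −0.26. Kmt2c was lower in all 4, by −0.513 to −1.001. Of 15 retinoic acid genes, a pathway that acts upstream of Hox transcription, 6 were higher and 5 lower in jerboa at each age and 8 higher with 3 and 2 lower in mouse, with list medians of 0.39, 0.285, 0.72 and 0.45. Crabp1, a retinoic acid binding protein, was higher in the jerboa hindfoot by 1.31 ± 0.09 and 1.97 ± 0.09 and in mouse at P3 by 3.14 ± 0.10, and Aldh1a2, which makes retinoic acid, was lower by −1.82 ± 0.14 and −2.00 ± 0.13 in jerboa and by −1.77 ± 0.13 in mouse at P3.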

How the data were processed

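Total RNA of 24 libraries was sequenced. The deposited files hold whole-number read counts per transcript identifier, made with STAR per the submitters' processing notes; for its version, the genome builds and the annotation, nothing is given in the sources used here. Column 4 of each file held nearly all assigned reads and was used, and the column of the other strand gave the opposite-strand shares (0.418% to 1.62% of all reads). Of 17641 identifiers, 17529 paired with a mouse symbol.

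Counts were fitted over all 24 libraries, 1 coefficient per group, with edgeR 4.0.16 in R 4.3.3 (TMM scaling, filterByExpr, quasi-likelihood test, Benjamini-Hochberg adjustment over 14448 genes). SE is the log2 difference divided by the square root of the F statistic. The fit was tested on simulated data. A group with 0 reads was set at 3 reads for a bound, and 1 to 3 reads were given a 95% counting interval, which covers counting error only. DESeq2 1.42.0, limma 3.58.1 (voom), other scalings, filters and strands, and each library left out were the alternatives. Named members were the 5 largest called changes in each direction at 1 CPM or more, and paralogs 9 to 13 of clusters A, C and D; further members were named to account for each cluster. From the lists, up to 3 genes with the smallest p were named. The members, lists and markers were chosen with earlier results of these data known. Values of 1 member, which the counts include, are not reported here.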

Additional observations from a re-analysis of the deposited data

Results flagged for a closer look

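For 11 members at P0 and 10 at P3 the difference between hindfoot and forelimb itself differed between jerboa and mouse by edgeR's quasi-likelihood test (adjusted p under 0.05). The values are jerboa minus mouse on the log2 scale. Paralog 9 was above 0 in clusters A, B and D: Hoxd9 was 2.62 at P0 and 2.06 at P3, Hoxb9 3.97 and 2.12, and Hoxa9 0.62 and 1.31. Hoxa4 was 1.73 at P0 and 1.16 at P3, and Hoxc4 was −1.14 and −1.44. The Hoxc4 call at P0 was lost with only the libraries compared in the fit (adjusted p = 0.0604) and in most fits with a library left out.

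At P0 alone, Hoxd10 was 1.13, Hoxd11 0.93, Hoxd8 0.89 and Hoxa11 0.58. The Hoxa11 call was lost with only the libraries compared in the fit (adjusted p = 0.0507) and in several fits with a library left out. Hoxb6 was −1.93 at P0 on 6 hindfoot and 19 forelimb reads in jerboa and 71 and 44 in mouse. Hoxc8 was −3.88 at P0, a fitted value that depends on the prior count because the mouse forelimb had 0 reads and the jerboa forelimb 3.

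At P3 alone, Hoxd12 was −1.62, Hoxd13 −0.75, Hoxb2 −2.05 and Hoxb3 −1.27. Hoxb3 did not pass without jerboa hindfoot replicate 1 (adjusted p = 0.0574) or mouse hindfoot replicate 3 (adjusted p = 0.0771) of P3. Hoxa2 was 1.24 at P3 and did not pass in 13 of the alternatives, among them the replicate block (adjusted p = 0.0558). Whether the difference between species itself changed from P0 to P3 was not tested.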

How the results depend on the processing

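Of the single-member results under the other settings, 1460 kept their direction and side of the threshold, 13 passed newly, 10 no longer passed and 4 changed sign; with 1 library left out these numbers were 1049, 13, 44 and 10. The limb differences and the difference between species of Hoxd9 kept both throughout. No scaling moved the median of all genes by over 0.1.

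Hoxa11 changed sign most often. With reads of either strand it was 0.382 in jerboa at P3, 0.011 in mouse at P3 and 0.371 in the difference between species at P3, and with upper quartile scaling 0.007 in mouse at P3. With 1 library left out it ranged from −0.038 (without hindfoot replicate 2) to 0.375 in jerboa at P0, from −0.091 to 0.04 (without forelimb replicate 3) in mouse at P3, and from −0.196 to 0.028 (without jerboa forelimb replicate 2) between species at P3. The jerboa hindfoot age differences of 4 members, none called, also changed sign with a library left out: Hoxc10 ranged from −0.045 to 0.345 (−0.01 in another), Hoxc11 from −0.094 to 0.263 (−0.036 in another), Hoxd10 from −0.173 to 0.035 (0.005 in another), and Hoxc9 from −0.437 to 0.161. The cause was not tested.

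With 1 library left out, the members called higher and lower in the hindfoot were 15 to 16 and 4 to 8 in jerboa at P0, 15 to 16 and 10 to 11 at P3, 13 to 15 and 10 to 14 in mouse at P0, and 13 and 12 to 13 at P3. For the difference between species they were 7 to 9 and 0 to 3 at P0 and 4 to 5 and 4 to 6 at P3. At P0 the lower members numbered 1 with only the libraries compared in the fit, 1 without replicate 1 of the jerboa forelimb or replicate 2 or 3 of the mouse hindfoot, and 0 without replicate 1 or 3 of the mouse forelimb. For age, 0 members were higher and 9 to 13 lower in the jerboa hindfoot, and 0 to 1 and 6 to 8 in the jerboa forelimb, the 1 without replicate 2 of P3. In mouse they were 3 to 4 and 5 to 10 in the hindfoot, the 5 without replicate 2 or 3 of P0, and 2 to 3 and 7 to 8 in the forelimb.

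Libraries with the same replicate number correlated in their deviations by −0.101 to 0.077 in jerboa and by 0 to 0.166 in mouse. Those with different numbers correlated by −0.176 to 0.171 in jerboa and by −0.125 to 0.081 in mouse. The numbers were not taken to pair the samples, though with 3 libraries per group this check cannot exclude pairing. With the replicate number as a block, Hoxa2 in the difference between species at P3 no longer passed (1.238, adjusted p = 0.0558), the members called lower came to 14 in mouse at P3 and 2 between species at P0, and no count moved by over 1.5 times. A block within each species and age, chosen after seeing the data, gave 7 lower members in jerboa at P0. Depth limits the genes near the floor of 3 reads, Hoxb5, Hoxb13, Hoxc5, Hoxc8 and Hoxc13 among them.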
